A study of Mus musculus with 4 samples.

Results

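The annexins and S100 proteins described here were Anxa1, Anxa2, Anxa3, Anxa5, Anxa6, Anxa10, S100a4, S100a6, S100a10 and S100a11, which are 10 of the 31053 genes counted in each library. They were picked by symbol because their RNA differed between subtypes of sensory neuron, between sham and CCI, or between Sprr1a+ and Sprr1a- neurons of these same libraries. Values and calls of the members in those 3 contrasts are therefore given as a description, and nothing is read from their tests. Single-cell RNA-seq was made on GFP+ cells sorted from bilateral L4-5 dorsal root ganglia (DRGs) on day 7 after surgery. CCI (chronic constriction injury) placed 3 loose nylon ligatures on both sciatic nerves, and sham mice had the surgery without them. All mice, sham mice included, were adult heterozygous PirtEGFPf mice on a C57BL/6 background, in which EGFPf replaces the open reading frame of 1 copy of Pirt and is driven by the Pirt promoter, so that cells without an active Pirt promoter should be missed by the sort. Each sex and surgery gave 1 library (Male-Sham, Male-CCI, Female-Sham, Female-CCI), and each of the 4 pooled 20 DRGs of 5 mice. Male and female mice of a litter had the same surgery, so litter and surgery cannot be told apart.

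Between 4019 and 8035 barcodes were deposited per library and 2947 to 5548 cells passed the filters, with a median of 31942 to 55255 UMIs (unique molecular identifiers, counted as 1 RNA each) per cell. Any pair of libraries shared 215 to 513 barcodes. The kept cells formed 30 clusters, which were named from marker genes as NP (nonpeptidergic), PEP (peptidergic), NF (neurofilament-rich) or cLTMR-like (C-fibre low-threshold mechanoreceptor) neurons, CCI-ind-like neurons (a class found mostly after CCI), satellite glial cells (SGC-like, 558 cells) and a few immune-like cells. The CCI-ind-like class held 40 cells of Male-Sham and 132 of Female-Sham, against 1002 of Male-CCI and 1211 of Female-CCI. Levels below are CPM, a gene's UMIs per 1000000 UMIs summed over the cells of a library. Where 4 values stand in a row, the male sham library comes first, then female sham, male CCI and female CCI, and the ± is the SD over the 2 libraries of a group. CPM counts 3′ tags and was compared only within a gene.

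Annexins are cytosolic proteins that bind acidic phospholipids of membranes when calcium rises, and they take part in vesicle fusion, membrane repair and the anchoring of the actin cortex. S100 proteins are small calcium-binding EF-hand proteins that work mostly as dimers and dock onto other proteins, annexins among them. Anxa2 forms a heterotetramer with S100a10, which brings ion channels to the surface of sensory neurons and binds plasminogen and its activator, and Anxa1 forms a similar complex with S100a11. S100a6 (calcyclin) and S100a4 (metastasin) bind other targets, including Cacybp and nonmuscle myosin. Sprr1a, a small proline-rich protein, is a textbook marker of neurons whose axon was injured.

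Of the 10 genes, 5 lie on chromosome 3 in the GENCODE annotation of GRCm38. S100a4 (chr3:90603771-90606045) and S100a6 (chr3:90612882-90624181) lie in a run of S100 genes, with S100a5 between them. S100a11 (chr3:93520488-93526287) and S100a10 (chr3:93555080-93564643) are neighbours on the + strand, separated by 28792 bp, and Sprr1a itself (chr3:92483952-92485895) lies between both S100 groups. Anxa5 (chr3:36448923-36475894) is far from them. A processed pseudogene, S100a11-ps, is annotated on another chromosome, and S100a11 counts are uncertain as far as reads were shared with it.

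RefSeq promoter windows (GRCm38.p6, 250 bases before to 50 after the gene start) were found for 7 of the 10 members: Anxa1, Anxa2, Anxa5, Anxa10, S100a4, S100a6 and S100a11. The Anxa1 window lay wholly inside the GENCODE gene, with 0 bases before it. Both strands were searched for the AP-1 letters TGANTCA and, as a separate motif, the cyclic AMP response letters TGACGTCA, which share no full match. The AP-1 letters were in 3 of the 7 windows, against 7.81% of the 32851 promoters in the table. The windows of Anxa1 and Anxa5 held none, and both genes are also described below as higher in Sprr1a+ neurons. The response letters were in 0 of the 7, against 1.79% of all promoters. The windows that held the AP-1 letters belong to Anxa2, Anxa10 and S100a11, and their bases before the gene are shown because these genes are among those described below as higher in Sprr1a+ neurons. They are written 5′ to 3′ on the gene's strand, end before the first base of the GENCODE gene, and have the matched letters in capitals.
Anxa2 (chr9:69453433-69453619, + strand): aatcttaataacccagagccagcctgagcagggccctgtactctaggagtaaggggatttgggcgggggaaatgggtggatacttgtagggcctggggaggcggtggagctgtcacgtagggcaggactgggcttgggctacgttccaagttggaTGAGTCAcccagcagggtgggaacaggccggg
Anxa10 (chr8:62123194-62123443, - strand): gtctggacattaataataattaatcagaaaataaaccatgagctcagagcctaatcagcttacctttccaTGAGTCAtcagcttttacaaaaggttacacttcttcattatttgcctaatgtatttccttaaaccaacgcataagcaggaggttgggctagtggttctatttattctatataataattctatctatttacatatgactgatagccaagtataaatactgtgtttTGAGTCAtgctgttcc
S100a11 (chr3:93520246-93520487, + strand): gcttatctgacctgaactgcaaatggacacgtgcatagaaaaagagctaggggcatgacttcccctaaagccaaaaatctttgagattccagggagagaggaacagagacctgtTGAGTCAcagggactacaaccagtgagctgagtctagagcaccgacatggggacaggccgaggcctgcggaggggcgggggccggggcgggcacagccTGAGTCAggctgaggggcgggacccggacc
The match began 95 bases before the RefSeq start of Anxa2, 180 and 16 bases before that of Anxa10, and 136 and 38 bases before that of S100a11. A match is a description of these letters only, and binding was not measured here.

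In the sham libraries the members divided the 10 named subtypes of neuron in different ways (plot of levels across neuronal classes). S100a11 and S100a4 varied most: the mean of the highest subtype was 127 times that of the lowest for S100a11 (210 times in Male-Sham alone and 90.9 times in Female-Sham alone) and 101 times for S100a4. For S100a6 this ratio was 11.4, and for Anxa5, Anxa2, Anxa6 and S100a10 it was 5.51, 4.44, 3.11 and 2.40. Anxa1, Anxa3 and Anxa10 were under 10 CPM in every named subtype of sham neurons.

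**Figure D1:**
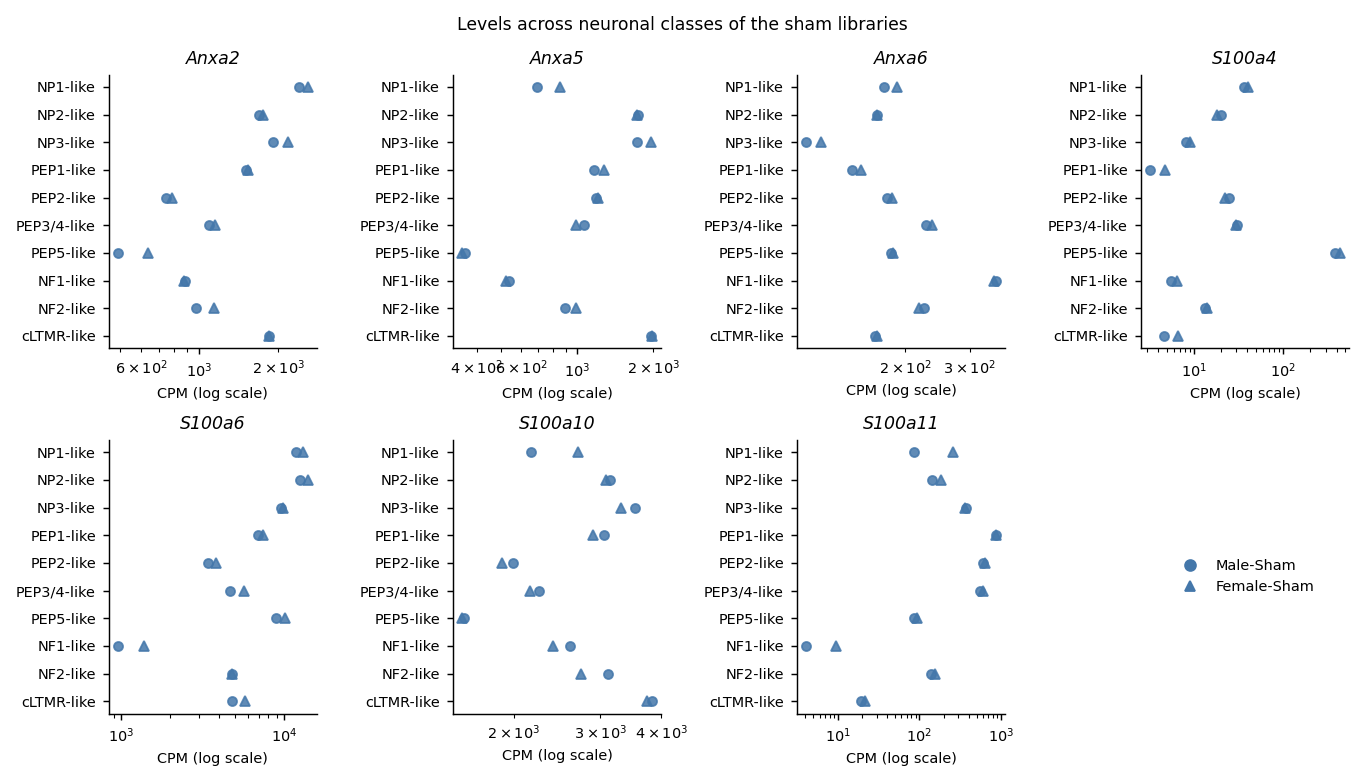
Level of 7 members in the 10 named neuronal subtypes of the sham libraries, in CPM on a log axis whose range differs between panels. Circles are Male-Sham and triangles Female-Sham. S100a11 was lowest and Anxa6 highest in NF1-like neurons, and S100a4 stood apart in PEP5-like neurons.

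Among the annexins, Anxa2 was highest in NP1-like neurons, the Nppb and Sst expressing itch neurons, with 2409 CPM in Male-Sham and 2592 CPM in Female-Sham. It was lowest in PEP5-like neurons, which carry the cold channel Trpm8, with 490 and 636 CPM. Anxa5, which binds phosphatidylserine, was highest in cLTMR-like neurons (1962 ± 16.2 CPM, SD, n = 2), NP3-like neurons (1845 ± 165) and NP2-like neurons, which overlapped in order, and lowest in PEP5-like neurons (356 ± 7.61). Anxa6, an annexin with a duplicated core, was highest in NF1-like neurons, with 352 ± 2.30 CPM, followed by 233 ± 6.69 CPM in PEP3/4-like neurons, and was lowest in NP3-like neurons (113 ± 7.73 CPM). The sham libraries of these 3 subtypes did not overlap for Anxa6.

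Among the S100 genes, S100a6 was highest in NP2-like neurons (12548 and 14022 CPM in Male-Sham and Female-Sham), which overlapped with NP1-like neurons (11870 and 13005 CPM). It was lowest in NF1-like neurons, a neurofilament-rich cluster with Pvalb as its leading gene, with 955 and 1382 CPM. S100a10 was highest in cLTMR-like neurons (3828 and 3742 CPM) and lowest in PEP5-like neurons (1583 and 1568 CPM), the same lowest subtype as its partner Anxa2. S100a11 was highest in PEP1-like neurons (863 and 856 CPM), followed by PEP2-like neurons (607 and 627 CPM), and was lowest in NF1-like neurons (4.10 and 9.41 CPM). S100a4 was highest in PEP5-like neurons (380 and 433 CPM), and the next subtype, NP1-like, had 36.7 and 40.4 CPM.

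The PEP5-like subtype held 3 clusters that differed in S100a4. The cluster led by Nkx6-2 and Foxp2 had 486 CPM in Male-Sham and 558 CPM in Female-Sham. The cluster led by Pnoc and Angpt4 had 189 and 286 CPM, and it also carried 13323 and 13131 CPM of the 6 satellite glial markers. The cluster led by Pnoc and Penk had 48.0 and 46.9 CPM, with 39.1 and 268 CPM of those markers. Satellite glial markers summed to 1315 and 1454 CPM in the first of these clusters, where S100a4 was highest.

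Over the 20 points that 10 subtypes in 2 sham libraries give, Anxa2 and S100a10 were correlated in log2(CPM + 1) with r = 0.73, Anxa5 and S100a10 with r = 0.77 and Anxa2 and Anxa5 with r = 0.65. S100a4 and S100a10 had r = -0.79 and Anxa6 and S100a6 r = -0.75. The points share libraries, and these values are descriptive. Among genes with at least 10 CPM in at least 1 subtype, the closest to S100a4 were Grxcr2 (r = 0.94), Macf1 and Hcn4 (both r = 0.90). Abhd5, Psma7 and Serpinb6a were closest to Anxa2 (r = 0.96, 0.95 and 0.95), and Cln6, Gm38901 and Cdipt to S100a10 (r = 0.93, 0.90 and 0.89). Mex3b, Lrrc8d and Nptx2 were closest to Anxa5 (r = 0.93, 0.91 and 0.88), Sacm1l, Pygb and Clec2l to Anxa6 (r = 0.91, 0.90 and 0.89), and 1110012L19Rik, Nudt2 and Pqlc3 to S100a6 (r = 0.92, 0.90 and 0.90).

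Over all neurons, the members split into a group that was higher after CCI and a pair that was lower (plot of annexin and S100 RNA by library). All 10 members passed the filter on low counts, Anxa10 through its CCI libraries only. Anxa3, Anxa10 and S100a11 were higher past both cutoffs (edgeR adjusted p under 0.05 and an absolute log2 fold change over 0.5) and S100a4 was lower, which is 4 of 10 members where 27.8% of the 17233 genes tested were called, 15.2% higher and 12.7% lower. The members were chosen on this contrast, so nothing is read from that count. Without the PEP5-like cells, a setting added after the data were seen, S100a4 no longer passed the cutoff on size (-0.39). Their median log2 fold change was 0.43, and that of all genes -0.0061.

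**Figure D2:**
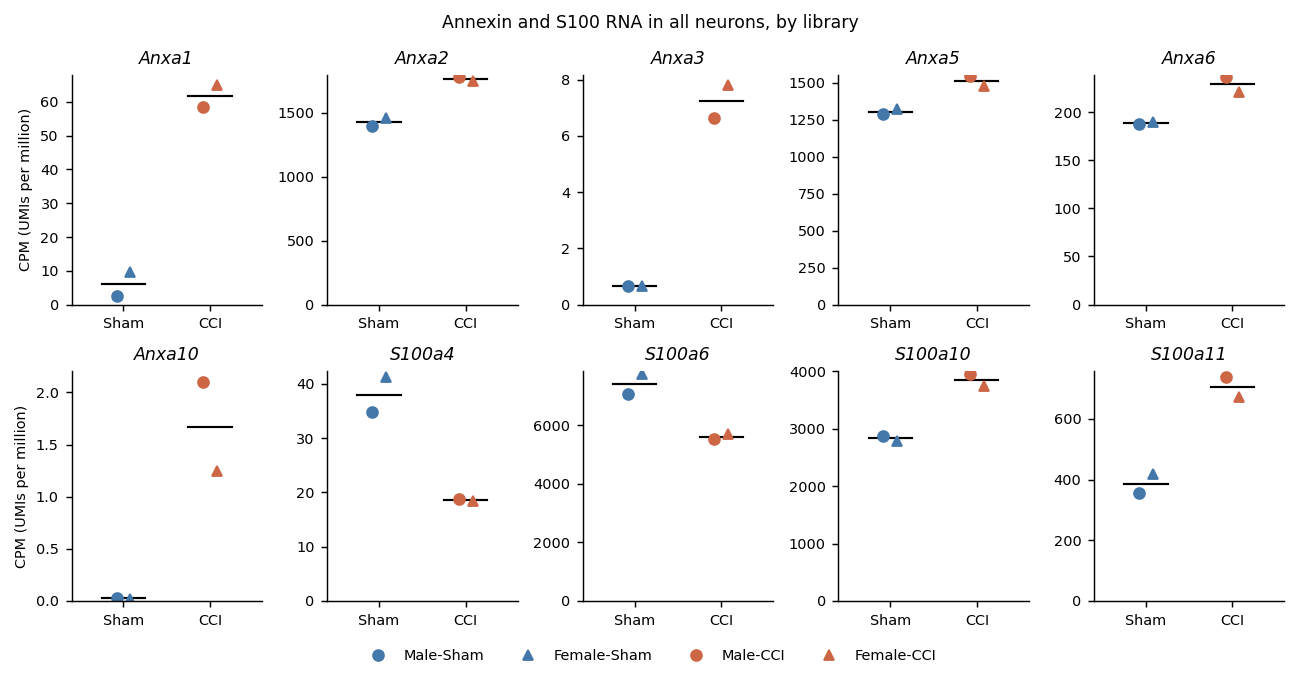
Level of each member in all neurons, in CPM on a linear axis from 0 whose range differs between panels. Points are single libraries (circle male, triangle female) and bars the mean of the 2 libraries. For S100a4 and S100a6 both sham libraries lie above both CCI libraries, and for the other 8 members they lie below.

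Anxa1, whose cleaved N-terminal peptide acts on formyl peptide receptors, had 2.48, 9.72, 58.6 and 65.0 CPM in the 4 libraries. The groups did not overlap, but the sham libraries stood apart from each other, and the log2 fold change of 3.38 had an SE of 0.88. The call was made with DESeq2 and without either sham library. S100a11, its partner, had 355, 418, 739 and 671 CPM, a log2 fold change of 0.92 (SE 0.10). Anxa2 had 1397, 1456, 1781 and 1746 CPM (log2 fold change 0.36, SE 0.05), and S100a10 had 2876, 2786, 3949 and 3748 CPM (0.50, SE 0.05). The latter was just under the cutoff of 0.5 and was called with DESeq2, with RLE size factors, without Male-Sham and without Female-CCI. Both members of the complex were thus higher in each CCI library than in either sham library.

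Anxa3 had 0.66, 0.66, 6.66 and 7.83 CPM (log2 fold change 3.51, SE 0.12). Anxa10 had 5 and 4 UMIs in the sham libraries and 342 and 199 UMIs in the CCI libraries, or 0.031, 0.021, 2.1 and 1.24 CPM. Over both CCI libraries, 243 of these UMIs were in the Sprr1a+ neurons of 1 subtype, NF1-like, which were 54 and 29 cells. Anxa5 (1284, 1323, 1541 and 1476 CPM) and Anxa6 (187, 190, 237 and 221 CPM) differed by log2 fold changes of 0.27 and 0.34. The 2 lower genes were S100a4, with 34.8, 41.3, 18.7 and 18.4 CPM (-0.98, SE 0.09), and S100a6, with 7074, 7753, 5527 and 5701 CPM (-0.35, SE 0.06). PEP5-like cells, which were 299 and 529 in the sham and 159 and 196 in the CCI libraries, held 59.1%, 65.0%, 41.2% and 41.9% of the neuronal S100a4 UMIs. Without them S100a4 was at 15.1, 15.4, 11.4 and 11.1 CPM in neurons, and the groups still did not overlap.

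The satellite glial markers summed to 1266, 1583, 845 and 1042 CPM in the same neurons, and all 6 were detected in every library. S100a4 was at 115, 148, 186 and 164 CPM in SGC-like cells, above its level in neurons, and the part of glial RNA in the lower neuronal level of S100a4 was not tested. In the cluster led by Pnoc and Penk, which had little glial RNA, S100a4 was at 48.0 and 46.9 CPM in sham and 5.61 and 36.7 CPM in CCI. The 5.61 CPM came from only 38 cells of Male-CCI. In the cluster led by Nkx6-2 and Foxp2 it was at 486 and 558 CPM in sham and 367 and 350 CPM in CCI. In the cluster led by Pnoc and Angpt4 it was at 189 and 286 CPM in sham and 66.3 and 123 CPM in CCI. The 8 immune markers summed to 10.95, 5.84, 8.33 and 10.1 CPM. Endothelial markers (5 genes) summed to 0.50, 0.55, 2.42 and 3.33 CPM, fibroblast markers (5) to 4.89, 5.64, 7.10 and 7.62 CPM and Schwann cell markers (6) to 465, 491, 477 and 508 CPM, and their part in these results was not tested.

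To compare the share of cells with a UMI at 1 depth, 2000 UMIs were drawn from every cell, for which all cells were deep enough. Anxa1 was then found in 0.2%, 0.7%, 6.5% and 6.3% of neurons and in 0% of SGC-like cells in every library. S100a11 was found in 41.3%, 47.7%, 62.9% and 62.5% of neurons and in 16.1%, 19.3%, 20.3% and 22.9% of SGC-like cells. Without thinning, Anxa1 was found in 0.73%, 1.72%, 17.2% and 19.0% of neurons and S100a11 in 83.5%, 84.4%, 94.9% and 94.6%. The median depth was 32490 to 56457 UMIs in neurons and 4188 to 5160 in SGC-like cells.

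A sharper division was seen within the CCI libraries, where 1467 of 2817 neurons in Male-CCI and 1790 of 3638 in Female-CCI were Sprr1a+ (a value of ln(UMIs per 10000 + 1) above 1). Of the 10 members, 7 were higher in Sprr1a+ neurons past both cutoffs (Anxa1, Anxa2, Anxa3, Anxa5, Anxa10, S100a10 and S100a11), S100a4 was lower, and Anxa6 and S100a6 were within the cutoff. The call of Anxa1 was lost without the filter on low counts, and that of S100a4 without the PEP5-like cells. Anxa10 passed that filter through its Sprr1a+ neurons only. Of the 16242 genes tested here, 45.5% were called, 20.9% higher and 24.7% lower, and the members were chosen on this contrast. Their median log2 fold change was 0.83 and that of all genes -0.00092.

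Anxa1 had 107 and 124 CPM in Sprr1a+ neurons of Male-CCI and Female-CCI, and 1.94 and 4.57 CPM in Sprr1a- neurons (log2 fold change 5.33, SE 0.35). Anxa10 had 3.81 and 2.39 CPM against 0.094 and 0.076 CPM (5.33, SE 0.24), and Anxa3 had 11.1 and 14.2 CPM against 1.41 and 1.35 CPM (3.37, SE 0.11). These 3 annexins were scarce in one fraction and present in the other. For Anxa10 a large part of the UMIs, 243 over both libraries, came from 54 and 29 Sprr1a+ NF1-like cells. Its difference without NF1-like cells was not tested. S100a11 had 1044 and 936 CPM against 378 and 402 CPM (1.52, SE 0.08), and S100a10 had 4972 and 4676 CPM against 2744 and 2804 CPM (0.97, SE 0.03).

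Anxa2, the partner of S100a10, had 2025 and 1990 CPM in Sprr1a+ and 1494 and 1498 CPM in Sprr1a- neurons (log2 fold change 0.60, SE 0.02). Anxa5 had 1787 and 1737 CPM against 1252 and 1210 CPM (0.69, SE 0.02). S100a4 was the reverse, with 11.3 and 10.9 CPM against 27.5 and 26.1 CPM (-1.10, SE 0.05). The fractions held different subtypes: 974 of the 1467 and 1164 of the 1790 Sprr1a+ neurons were CCI-ind-like, and PEP5-like cells were 156 and 190 of the Sprr1a- and 3 and 6 of the Sprr1a+ neurons. PEP5-like cells held 61.0% and 58.3% of the S100a4 UMIs of Sprr1a- neurons. Without them S100a4 had 11.2 and 10.6 CPM in Sprr1a+ against 11.5 and 11.6 CPM in Sprr1a- neurons, with a log2 fold change of 0.072. Over neurons of all subtypes together, the lower level thus held only with these cells. Sprr1a+ and Sprr1a- neurons of the CCI libraries were not tested against each other within a subtype. The other 9 members kept their direction and their side of the cutoffs without them. S100a6 had 5406 and 5855 CPM against 5669 and 5545 CPM, so the libraries went opposite ways in CPM, and its log2 fold change of 0.18 (SE 0.04) came to 0.0048 with library totals alone. Without scaling factors the median of all genes was -0.17, and Anxa2 then had 0.42 and no longer passed the cutoff.

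**Figure D3:**
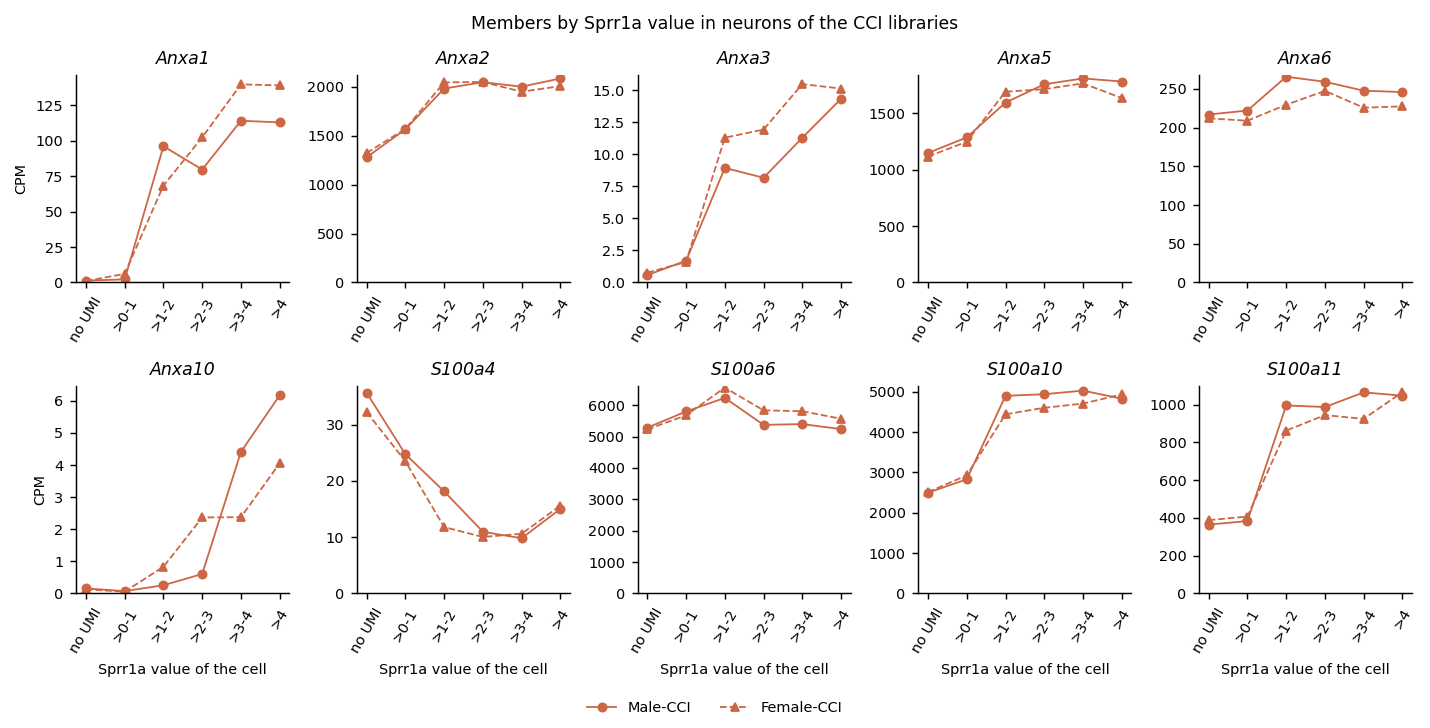
Level of each member, in CPM on a linear axis from 0 whose range differs between panels, in neurons of Male-CCI (circles, solid line) and Female-CCI (triangles, dashed line), by the Sprr1a value of the cell, ln(UMIs per 10000 + 1). For Anxa1, Anxa3 and S100a11 the step lay between cells with a value of up to 1 and cells with a value above 1.

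When neurons of the CCI libraries were ordered by their Sprr1a value, S100a11, Anxa1, Anxa3 and S100a10 were higher in the neurons just over a value of 1 than in those just under it. S100a11 had 365 and 388 CPM in neurons with no Sprr1a UMI, 383 and 407 CPM in those with a value above 0 and up to 1, and 996 and 862 CPM in those above 1 and up to 2. In neurons above 4 it had 1047 and 1066 CPM. Anxa1 had 1.30 and 0.98 CPM with no UMI, 2.16 and 6.08 CPM up to 1, 96.1 and 68.3 CPM up to 2 and 113 and 139 CPM above 4. Anxa3 had 1.69 and 1.597 CPM in neurons above 0 and up to 1, and 8.94 and 11.3 CPM in those above 1 and up to 2. S100a10 had 2497 and 2510 CPM with no UMI, then 2829 and 2928 CPM, and 4898 and 4440 CPM above 1 and up to 2. Anxa10, scarce throughout, had 0.07 and 0.05 CPM in neurons above 0 and up to 1, 0.26 and 0.83 CPM in neurons above 1 and up to 2, and 6.17 and 4.06 CPM in those above 4.

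A few neurons of the sham libraries were Sprr1a+ as well, 42 in Male-Sham and 144 in Female-Sham. Anxa1 had 149 and 271 CPM in those cells and 0.16 and 1.14 CPM in Sprr1a- sham neurons. S100a11 had 921 and 1064 CPM against 346 and 397 CPM. S100a6 had 9765 and 10882 CPM in Sprr1a+ sham neurons, above the 5406 and 5855 CPM of Sprr1a+ CCI neurons. The sham cells of the CCI-ind-like class were mostly Sprr1a+ (36 of 40 and 125 of 132), and they held 386 of the 402 neuronal Anxa1 UMIs of Male-Sham and 1813 of the 1841 of Female-Sham.

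The CCI-ind-like class held 3 clusters, which differed in their annexins. In the cluster led by Anxa1, Anxa1 had 193 and 224 CPM in Male-CCI and Female-CCI, in the cluster led by Crh 124 and 110 CPM, and in the cluster led by En1 23.3 and 25.3 CPM. Anxa3 had another order, with 17.2 and 23.2 CPM in the En1 cluster, 9.49 and 12.7 CPM in the Anxa1 cluster and 0.74 and 1.57 CPM in the Crh cluster. Anxa10 had its highest level in the Crh cluster, at 5.89 and 9.97 CPM, against 2.35 and 1.59 CPM in the Anxa1 cluster and 0.063 and 0.068 CPM in the En1 cluster. The Anxa1 cluster was the larger, with 552 and 702 cells against 173 and 195 in the Crh cluster. S100a6 was at 3037 and 3575 CPM in the Crh cluster, 6975 and 7235 CPM in the Anxa1 cluster and 6048 and 6629 CPM in the En1 cluster. The clusters were made from the RNA of these same cells, so these values describe them and test nothing.

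Of the unnamed clusters found almost only after CCI, the one led by Ly6a had 104 and 131 CPM of Anxa1 in Male-CCI and Female-CCI, with 0 UMIs of Anxa10. Its S100a11 was at 1392 and 1266 CPM. The one led by Ankrd1 had 20.9 and 23.2 CPM of Anxa3 and 79.3 and 55.0 CPM of Anxa1.

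Besides the CCI-ind-like class, only 3 named subtypes held at least 10 Sprr1a+ neurons in each CCI library, NP1-like, NF1-like and NF2-like, and in these the Sprr1a+ CCI neurons were set against the Sprr1a- sham neurons of the same subtype (plot of members in the classes that held Sprr1a+ and Sprr1a- neurons). Which subtypes reached that number depended on the clustering: PEP5-like neurons held 3 and 6 Sprr1a+ cells in Male-CCI and Female-CCI, but 179 and 192 when doublets were kept and the cells clustered anew. In the new clustering a PEP5-like cluster had Ankrd1, Arg2 and Prss12 among its top genes. The unnamed Ankrd1 cluster of the main clustering shares these genes and held 146 and 154 Sprr1a+ cells. In NF1-like neurons all 10 members passed the filter, and 8 were higher past both cutoffs (all but Anxa6 and S100a4), where 45.7% of 12080 genes were called, 22.0% higher and 23.7% lower. Anxa1 (0 and 0.097 CPM in sham) and Anxa10 (0 UMIs in sham) passed that filter through their CCI libraries only, so neither could be called lower. In NP1-like neurons Anxa3, Anxa5 and S100a10 were higher and S100a4 and S100a6 lower, among 9 members tested and with 41.2% of 11319 genes called, 20.8% higher and 20.4% lower. Anxa1 and Anxa3 passed the filter there through their CCI libraries only, so neither could be called lower in NP1-like neurons. In NF2-like neurons Anxa2, S100a10 and S100a11 were higher among 7 members tested, with 39.8% of 11709 genes called, 19.5% higher and 20.3% lower. The members were chosen with these values known, and the 3 subtypes have their own sham cells.

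**Figure D4:**
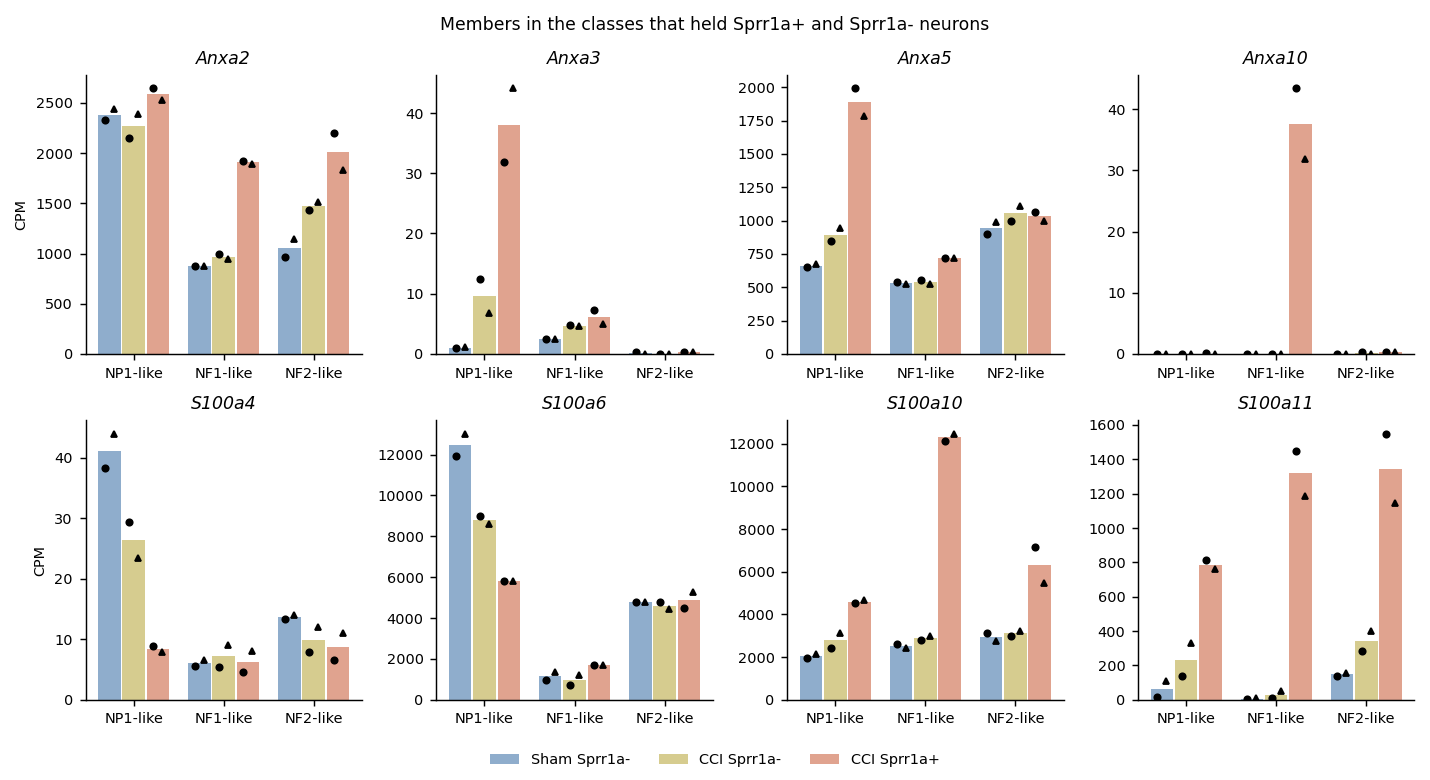
Level of 8 members in Sprr1a- sham, Sprr1a- CCI and Sprr1a+ CCI neurons of the 3 subtypes with enough Sprr1a+ cells, in CPM on a linear axis from 0 whose range differs between panels. Bars are means of 2 libraries and points the libraries (circle male, triangle female). Anxa10 was found in Sprr1a+ NF1-like neurons and was at most 0.36 CPM in any library of the other bars.

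In NF1-like neurons S100a11 had 4.10 and 9.41 CPM in sham and 1450 and 1185 CPM in Sprr1a+ CCI neurons, of which there were 54 and 29 cells (log2 fold change 7.99, SE 0.44). With sex as a replicate block this call was lost. S100a10 had 2603 and 2408 CPM against 12134 and 12473 CPM (2.63, SE 0.07). Anxa2 had 879 and 874 CPM against 1924 and 1896 CPM (1.45, SE 0.07), and Anxa5 had 537 and 523 CPM against 719 and 720 CPM (0.77, SE 0.07). Sham and CCI libraries did not overlap for any of these, and Anxa5 missed the cutoff with library totals alone (0.44) and with any Sprr1a UMI as the limit (0.39). The call of Anxa3 there (1.69) was lost without Male-CCI.

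Anxa10 was not detected in the sham NF1-like neurons, with 0 UMIs of 23226376 over both libraries, which allows up to 0.129 CPM (3 UMIs over the group). Sprr1a+ NF1-like neurons had 192 and 51 UMIs, or 43.5 and 31.8 CPM, which is at least 291-fold higher. A UMI of Anxa10 was found in 46.3% of the 54 cells of Male-CCI (95% Clopper-Pearson interval 32.6% to 60.4%) and in 44.8% of the 29 of Female-CCI (26.4% to 64.3%), in cells with a median of 89348 and 62241 UMIs over the subtype. These intervals cover counting error only. The Sprr1a- NF1-like neurons of the CCI libraries (64 and 56 cells) had 0 UMIs of it, for which the same interval on the share of cells with a UMI ends at 5.6% and 6.38%. A cell with 0 UMIs of a scarce RNA may still hold it, so this does not limit the share of cells that express Anxa10. SGC-like cells, shallower by far, had 0 UMIs of Anxa10 in all 4 libraries.

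S100a6 went opposite ways in NP1-like and NF1-like neurons. In NP1-like neurons it had 11917 and 13026 CPM in sham and 5800 and 5809 CPM in Sprr1a+ CCI neurons (log2 fold change -1.05, SE 0.09). In NF1-like neurons it had 955 and 1382 CPM against 1696 and 1701 CPM (0.87, SE 0.19), which missed the cutoff without either CCI library, with library totals alone (0.54), with doublets kept and with any Sprr1a UMI as the limit. S100a4 had 38.4 and 44.0 CPM against 8.88 and 7.96 CPM in NP1-like neurons (-2.22, SE 0.18).

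In NP1-like neurons Anxa3 had 1.04 and 1.07 CPM in sham and 31.8 and 44.2 CPM in Sprr1a+ CCI neurons (log2 fold change 5.19, SE 0.33). Anxa5 had 652 and 672 CPM against 1996 and 1782 CPM (1.57, SE 0.09), and S100a10 had 1944 and 2122 CPM against 4547 and 4660 CPM (1.24, SE 0.09). S100a11 had 18.9 and 107 CPM against 814 and 759 CPM (3.76, SE 1.05), with the sham libraries far apart, and was called with DESeq2, without either sham library, with doublets kept and with any Sprr1a UMI as the limit. Anxa1 had 0 and 1.79 CPM in sham and 18.8 and 6.60 CPM in Sprr1a+ CCI neurons (4.11, SE 1.62), and was called with sex as a replicate block and when any 1 of the 4 libraries was left out. The subtype held a cluster led by Sst and Nppb and a cluster led by Cd207, and the latter held 6 and 25 of the 88 NP1-like cells in each sham library and 101 and 115 of the 129 and 141 in the CCI libraries. Within the Cd207 cluster S100a11 was at 771 and 770 CPM in the sham libraries and 795 and 759 CPM in the CCI libraries, while the Sst cluster had 19.0, 17.9, 141 and 158 CPM. S100a10 was at 4487, 4584, 4512 and 4669 CPM within the Cd207 cluster, so for both genes the sham and CCI libraries were close together there. These cluster values take Sprr1a+ and Sprr1a- cells together, unlike the Sprr1a- sham neurons above. NP1-like neurons held 5 and 17 Sprr1a+ cells in the sham libraries, beside the 6 and 25 sham cells of the Cd207 cluster. The part of the cluster sizes in the difference over the subtype was not tested. Anxa5 (1078, 1330, 2004 and 1754 CPM), Anxa3 (8.00, 16.2, 33.9 and 41.5 CPM) and S100a4 (21.3, 33.3, 8.79 and 8.28 CPM) did not overlap between sham and CCI within that cluster. S100a6 differed within it too, with 11446 and 13784 CPM in sham and 5912 and 5812 CPM in CCI.

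In NF2-like neurons S100a11 had 140 and 155 CPM in sham and 1549 and 1143 CPM in Sprr1a+ CCI neurons (log2 fold change 3.44, SE 0.18). S100a10 had 3111 and 2739 CPM against 7138 and 5491 CPM (1.36, SE 0.16) and Anxa2 had 969 and 1142 CPM against 2201 and 1828 CPM (1.18, SE 0.15). Anxa1, Anxa3 and Anxa10 did not pass the filter there, with at most 12 UMIs in a library. In NF1-like and NF2-like neurons the median of all genes was -0.39 and -0.26 without scaling factors, against -0.053 and -0.017 with them, and Anxa6 in NF1-like neurons changed sign (0.27 with and -0.06 without).

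The Sprr1a- neurons of the CCI libraries, compared with Sprr1a- sham neurons subtype by subtype, had narrower differences in most members. Of the 100 pairs of member and subtype, 66 had a mean of at least 10 CPM, none of them from Anxa1, Anxa3 or Anxa10. In 27 of the 66 both CCI libraries lay above both sham libraries and in 23 below, where 29.5% and 28.1% of all pairs of gene and subtype did so. Anxa6 was higher in 9 of 10 subtypes and lower in 0, and S100a6 was lower in 8 of 10 and higher in 0. S100a4 was lower in all 6 subtypes in which it passed 10 CPM. In NF2-like neurons its mean passed 10 CPM in the sham libraries only (13.34 and 14.04 CPM in sham, 7.88 and 12.02 CPM in CCI). Nothing is read from S100a4 in NF2-like neurons, a pair that is also among the 23. S100a11 was higher in 6 and lower in 3 (PEP1-like, PEP2-like and PEP3/4-like, the subtypes with the most of it in sham). Of its 6, NF1-like passed 10 CPM through the CCI libraries only (4.10 and 9.41 CPM in sham, 10.04 and 50.5 CPM in CCI). Nothing is read from that pair, which is also among the 27.

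For Anxa6 these differences were narrow, for example 167.8 and 167.7 CPM in sham and 211 and 198 CPM in CCI for Sprr1a- NP2-like neurons. S100a6 had 12548 and 14022 CPM in sham NP2-like neurons and 9966 and 10195 CPM in CCI, and in PEP5-like neurons 8916 and 10180 CPM against 6368 and 6764 CPM. S100a4 in PEP5-like neurons had 380 and 434 CPM against 257 and 247 CPM. S100a11 in Sprr1a- NF2-like neurons had 282 and 401 CPM after CCI, between the sham level and that of the Sprr1a+ neurons.

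SGC-like cells and sex were not part of the choice of members, and the members were tested there. In SGC-like cells 7 of the 10 passed the filter and 0 were called between CCI and sham by edgeR's quasi-likelihood test, where 3.27% of 7279 genes were. S100a4 had the lowest adjusted p of 0.24 (115 and 148 CPM in sham, 186 and 164 CPM in CCI, log2 fold change 0.38, SE 0.17). Anxa6 had 76.1 and 68.3 CPM against 94.6 and 106 CPM (0.41, SE 0.20, edgeR adjusted p = 0.31). Before adjustment 3 of the 7 had a p under 0.05, and DESeq2 called 0 of the 4 for which it gave an adjusted p. Anxa1, Anxa3 and Anxa10 were not tested there and had at most 3 UMIs in a library.

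SGC-like cells held 23.0%, 23.9%, 30.9% and 34.0% of the neuronal CPM of S100a6, while Tubb3, a tubulin of neurons, was there at 6.54%, 7.41%, 4.77% and 8.06% of its neuronal CPM. For S100a10 this ratio was 10.8%, 10.0%, 6.93% and 10.3%, nearer to that of Tubb3. For Anxa2 it was 34.0%, 33.2%, 30.0% and 29.0%, and for S100a4 it was over 100% in every library.

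Between male and female neurons, with surgery as a term, 0 of 10 members were called by edgeR, where 0.209% of 17233 genes were. Their adjusted p lay between 0.24 (Anxa10, log2 fold change 0.75, SE 0.18) and 0.98 (Anxa5), and 1 had an unadjusted p under 0.05. DESeq2 called 0 as well, and Anxa10 was called without the filter on low counts and with library totals alone. A p above the cutoff does not show that the sexes were alike. The libraries of a group differed in sex and in the mice pooled, and between CCI and sham p-values measure the spread between these pools. In the test of sex they measure how far the sex difference varied between sham and CCI. Within the CCI libraries the library block takes the spread between pools out.

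The other annexins and S100 genes are lists that were also set with earlier results of these data known. Their calls and p-values in neurons, and those of the partners below, are therefore given as a description. Of 5 other annexins tested in all neurons, Anxa8 was called higher after CCI by edgeR (0.025 and 0.042 CPM in sham, 0.18 and 0.15 CPM in CCI, log2 fold change 2.33, SE 0.39, adjusted p = 0.0027) and the other 4 were not. Anxa8 passed the filter on low counts through its CCI libraries only, so it could not be called lower and nothing is read from its call. Of 11 other S100 genes, S100a3 (2.32 and 3.29 CPM against 10.3 and 8.24 CPM, log2 fold change 1.77, edgeR adjusted p = 0.0015) and S100a8, a subunit of calprotectin (0.22 and 0.32 CPM against 1.44 and 1.44 CPM, log2 fold change 2.48, edgeR adjusted p = 0.00013) rose. S100a5 (log2 fold change -0.99, edgeR adjusted p = 0.0039) and S100g, the vitamin D dependent calbindin (-1.85, edgeR adjusted p = 0.00076), fell. The median log2 fold change was 0.03 over the 5 annexins and -0.20 over the 11 S100 genes.

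In Sprr1a+ against Sprr1a- neurons, 3 of 9 other S100 genes tested rose and 5 fell, where 20.9% of all genes were called higher and 24.7% lower. S100a13, which takes part in the release of proteins without a signal peptide, had 388 and 368 CPM in Sprr1a+ and 669 and 697 CPM in Sprr1a- neurons (log2 fold change -0.68, edgeR adjusted p = 8.85e-07). S100b had 85.8 and 46.2 CPM against 299 and 217 CPM (-1.84, edgeR adjusted p = 0.029), and S100a16 fell by 0.79 on the log2 scale (edgeR adjusted p = 0.00016). Both of the last changed sign when any Sprr1a UMI was the limit (0.27 for S100b and 0.43 for S100a16). S100a3 rose (2.07, edgeR adjusted p = 3.8e-09). Anxa4 fell, with 5.59 and 6.81 CPM against 13.2 and 14 CPM (-0.96, edgeR adjusted p = 9.8e-07).

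Within the 3 subtypes, Anxa11, which S100a6 binds, was lower in Sprr1a+ CCI neurons in each. It had 148 and 145 CPM in sham and 62.8 and 63.0 CPM in NP1-like neurons (log2 fold change -1.16, edgeR adjusted p = 1.2e-12), 52.0 and 53.8 CPM against 12.9 and 12.5 CPM in NF1-like neurons (-1.71, edgeR adjusted p = 2.0e-07) and 22.1 and 17.7 CPM against 7.66 and 7.45 CPM in NF2-like neurons (-1.15, edgeR adjusted p = 0.0021). S100b, abundant in both NF subtypes, fell from 2032 and 1838 CPM to 393 and 307 CPM in NF2-like neurons (-2.22, edgeR adjusted p = 7.9e-06) and from 2044 and 2060 CPM to 994 and 965 CPM in NF1-like neurons (-0.74, edgeR adjusted p = 7.3e-07). S100a1 rose in NF1-like neurons from 8.59 and 9.51 CPM to 43.7 and 31.8 CPM (2.46, edgeR adjusted p = 2.7e-08).

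Among the 24 listed partners of the members, 22 were tested in Sprr1a+ against Sprr1a- neurons, of which 6 rose and 8 fell, beside the 45.5% of all genes called there. Those that rose were genes of the plasminogen system (Plat, Plau and its receptor Plaur), Ahnak, a large scaffold bound by Anxa2 and S100a10, Myof and Pdcd6. Plaur had 84.5 and 84.0 CPM against 10.8 and 11.1 CPM (log2 fold change 3.12, edgeR adjusted p = 6.8e-12). Ahnak had 281 and 290 CPM against 221 and 223 CPM (0.54, edgeR adjusted p = 4.7e-08, and 0.45 without the PEP5-like cells, under the cutoff on size), and in NF1-like neurons it went from 2.63 and 6.02 CPM in sham to 23.1 and 39.3 CPM (3.11, edgeR adjusted p = 0.0018).

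Several membrane proteins among the listed partners were lower in Sprr1a+ neurons. The fractions held different subtypes, and the part of that in these differences was not tested. PEP3/4-like neurons, which hold a cluster with Trpa1 among its top genes, were 326 and 491 of the Sprr1a- neurons in Male-CCI and Female-CCI. They were 1 and 4 of the Sprr1a+ neurons. Scn10a, a sodium channel of nociceptors that S100a10 brings to the membrane, had 11.7 and 13.6 CPM in Sprr1a+ and 202 and 207 CPM in Sprr1a- neurons (log2 fold change -3.84, edgeR adjusted p = 5.1e-11). Trpa1, the irritant channel, had 0.77 and 1.33 CPM against 44.0 and 64.4 CPM (-5.52, edgeR adjusted p = 5.9e-12). Htr1b (-3.12), Kcnk3 (-1.95), Asic1 (-2.03) and Piezo2 (-1.28) also fell, as did Ager, the receptor of several S100 proteins (-1.01, edgeR adjusted p = 0.0034). Kcnk9 also fell (-2.40), but without the PEP5-like cells it had 1.31 and was called higher. In SGC-like cells 0 of 11 partners, 0 of 5 other S100 genes and 0 of 3 other annexins were called by edgeR, and 3, 2 and 0 of them had an unadjusted p under 0.05. There Ahnak (527 and 486 CPM in sham, 756 and 688 CPM in CCI, log2 fold change 0.46, edgeR adjusted p = 0.012) and S100b (449 and 483 CPM against 400 and 295 CPM, -0.47, edgeR adjusted p = 0.034) passed the cutoff on p and not that on size.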

How the data were processed

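Single-cell 3′ libraries of sorted cells were counted with Cell Ranger on mm10, and the authors deposited raw UMI counts per gene and barcode, not normalized. The version of Cell Ranger is 2.1.1 in the submitters' processing notes and 3.0.2 in the file headers. Here doublets were taken off by Scrublet score (scanpy 1.11.5) in the number the study gives per library, cells with under 1500 genes or over 10% mitochondrial UMIs were left out, and libraries were integrated with Seurat 5.3.0 (3000 features, 20 dimensions, resolution 0.8). Clusters were named where at least 3 markers passed a fold of 2 with a score of at least 1.5, thresholds set after the clusters were seen. UMIs were summed per library and cell set and tested with edgeR 4.0.16 (quasi-likelihood, TMM, filterByExpr, Benjamini-Hochberg over all genes tested). A gene was called at an adjusted p below 0.05 with an absolute log2 fold change above 0.5. The SE is the log2 fold change over the root of F.

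The genes named were the 10 members, called or related genes of 3 lists (other annexins, other S100 genes, partners) and the 3 genes most like each member. The members, lists and contrasts were chosen with earlier results of these data known. Alternatives were DESeq2 1.42.0, other size factors, filters, cells, resolutions and Sprr1a limits, and leaving out libraries. Library totals without scaling factors, and fits without PEP5-like cells, were added after the data were seen. The edgeR test was tested on simulated data. Anxa13 was not analysed here. The genes closest in pattern to S100a11 are not reported here.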

Additional observations from a re-analysis of the deposited data

Results flagged for a closer look

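Some genes differed in opposite directions in different subtypes, in both CCI libraries against both sham libraries, when Sprr1a+ CCI neurons were set against Sprr1a- sham neurons, and the difference between subtypes was not tested for any of them. S100a6 had a log2 fold change of -1.05 in NP1-like and 0.87 in NF1-like neurons, a difference of 1.92. Anxa4 had 0.49 in NP1-like neurons against -0.55 (NF1-like) and -0.64 (NF2-like), differences of -1.04 and -1.13 from NP1-like neurons, and it was called only in NF2-like neurons. S100a1 had -0.28 in NP1-like neurons against 2.46 (NF1-like) and 1.04 (NF2-like), differences of 2.74 and 1.32, and it was not called in NP1-like neurons.

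S100a13 had -0.83 in NP1-like neurons, 1.2 in NF1-like neurons and -0.20 in the NF2-like subtype, so that NF1-like stood 2.04 above NP1-like and NF2-like differed from NF1-like by -1.41. It was called in NP1-like and NF1-like neurons and not in NF2-like neurons. S100a16, a leading gene of NF2-like neurons, had 0.73 in NP1-like neurons and 3.46 in NF1-like neurons against -1.76 in its own subtype, and the latter differed from the others by -2.49 and -5.22. It was called only in NF2-like neurons.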

How the results depend on the processing

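Of 828 log2 fold changes of members under other settings, 794 kept their side of the cutoffs, 21 were newly called, 12 lost their call and 1 called value reversed, and 13 in all had the opposite sign. At the other resolutions the cells of all neurons, NP1-like neurons and NF1-like neurons were the same, so those fits could not differ. The reversed value was S100a4 in Sprr1a+ against Sprr1a- neurons without the PEP5-like cells (0.072). Kcnk9 reversed there (1.31) and after CCI in all neurons (0.74). Genes called numbered 4197 to 4498 (4798 with all libraries) when 1 library was left out in all neurons, 4200 to 4872 (4665) in NP1-like, 4265 to 5318 (5517) in NF1-like, 3417 to 5126 (4658) in NF2-like and 146 (without Male-CCI) to 319 (238) in SGC-like cells. SGC-like cells gave 43 with DESeq2 and 1 with at least 3000 genes per cell. Between the sexes 36 became 108 without the filter, 129 with library totals alone, 81 with doublets kept and 0 without the surgery term. With any Sprr1a UMI as the limit, 7394 became 4782 in Sprr1a+ against Sprr1a- neurons, 5517 became 2205 (NF1-like) and 4658 became 2887 (NF2-like), and S100a16 (0.43) and S100b (0.27) reversed. The cause of these shifts was not tested. With sex as a replicate block 4946 genes were called in all neurons, 330 in SGC-like, 4521 in NP1-like cells, 5430 (NF1-like) and 4574 (NF2-like), and 7305 without the library block in Sprr1a+ against Sprr1a- neurons. The same sex is not the same mice, and the deviations of Male-Sham and Male-CCI had r = 0.70 over 8283 genes. Leaving out a library was not possible between the sexes or within the CCI libraries. Levels at other resolutions stayed within 1 SD in 200 of 200, but the sham cells of the subtypes were nearly the same there. With thinning, 69 of 80 shares of cells moved.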
